A study of Mus musculus with 10 samples.

Results

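Genes of the cell cycle and of DNA replication were described across cultured mouse pericytes, primary oligodendrocyte lineage cells and oligodendrocyte progenitor cells induced from pericytes. The set was a fixed list of 59 genes, of which 29 act mainly in S phase, 27 mainly in mitosis and 3 (Ezh2, Hmgb2 and Stmn1) follow proliferation without belonging to either machinery. All probes carrying a member's symbol were taken, out of the 16593 genes that the arrays named. The study hybridised biotin-labelled cRNA from total RNA of C57BL/6 mouse cells to 10 Illumina bead arrays, 2 for each of 5 headings. PC are pericytes, the mural cells that wrap capillaries. OPC are primary cells, given the cell type oligodendrocyte in the labels and a progenitor abbreviation in their titles. The titles PC2FiOPCp5, PC2FiOPCp15 and PC2FiOPCp25 stand for induced oligodendrocyte progenitor cells made from pericytes and grown for 5, 15 or 25 passages, and are called p5, p15 and p25 here. The agents used for the induction, and the age of the donor animals, are not given in the sources used here. No label says that the 2 arrays of a heading came from separate cultures, so every p-value measures only the spread between these arrays, which may be technical.

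DNA replication begins with licensing, in which Cdc6 and Cdt1 load the Mcm2 to Mcm7 helicase onto origins, and geminin (Gmnn) blocks further loading by Cdt1. Cyclin E with Cdk2, and the transcription factor E2f1, carry cells from G1 into S phase, where polymerases, the clamp Pcna and its loader copy the DNA from nucleotides supplied by enzymes such as ribonucleotide reductase. Cdk1 with cyclins A and B then starts mitosis, which spindle motors, the kinetochore checkpoint and the anaphase-promoting complex carry to division. Genes of the earlier group are commonly E2F targets, and many of the later group are controlled through the cell cycle genes homology region (CHR) and CCAAT boxes. Oligodendrocyte progenitors divide, and they leave the cell cycle when they mature into myelinating cells.

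Promoters of 6 members are shown because they hold the words that were counted over all members, in different mixtures. They run from 250 bases before to 50 bases after the transcription start in the RefSeq annotation of the GRCm38.p6 build, 5′ to 3′ on the gene's strand. Mcm5, Mcm6 and Rrm2 stand for S phase, and Cdk1, Top2a and Cdc20 for mitosis. Capitals mark any match, on either strand, to an E2F word, a CHR word or a CCAAT box. The E2F word was TTCCCGC or, with other middle bases, TTGGCGC or likewise TTCGCGC or finally TTGCCGC, the CHR word was TTTGAA or alternatively TTCGAA, and the box was the bare pentamer CCAAT. The windows are Mcm5 at chr8:75109259-75109558 on the plus strand, Mcm6 at chr1:128359656-128359955 on the minus strand, Rrm2 at chr12:24708004-24708303 on the plus strand, Cdk1 at chr10:69352863-69353162 on the minus strand, Top2a at chr11:99024140-99024439 on the minus strand and Cdc20 at chr4:118437294-118437593 on the minus strand.
Mcm5: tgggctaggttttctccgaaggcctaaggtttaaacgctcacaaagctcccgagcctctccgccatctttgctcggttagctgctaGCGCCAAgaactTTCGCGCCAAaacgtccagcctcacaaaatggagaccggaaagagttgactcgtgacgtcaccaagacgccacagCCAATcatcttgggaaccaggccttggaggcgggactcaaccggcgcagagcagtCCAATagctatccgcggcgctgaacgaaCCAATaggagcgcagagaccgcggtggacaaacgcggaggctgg
Mcm6: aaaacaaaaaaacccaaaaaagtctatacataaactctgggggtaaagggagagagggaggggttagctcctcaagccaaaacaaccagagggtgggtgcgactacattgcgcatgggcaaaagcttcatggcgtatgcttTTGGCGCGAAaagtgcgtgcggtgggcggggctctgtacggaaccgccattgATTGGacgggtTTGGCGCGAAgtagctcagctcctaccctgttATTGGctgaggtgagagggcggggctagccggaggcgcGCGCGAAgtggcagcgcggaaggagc
Rrm2: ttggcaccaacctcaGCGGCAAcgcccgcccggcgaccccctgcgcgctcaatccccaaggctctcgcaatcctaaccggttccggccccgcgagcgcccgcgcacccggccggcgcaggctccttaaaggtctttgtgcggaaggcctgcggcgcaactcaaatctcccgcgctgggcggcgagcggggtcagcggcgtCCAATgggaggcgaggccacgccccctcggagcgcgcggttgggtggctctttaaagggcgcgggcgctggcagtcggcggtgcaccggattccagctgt
Cdk1: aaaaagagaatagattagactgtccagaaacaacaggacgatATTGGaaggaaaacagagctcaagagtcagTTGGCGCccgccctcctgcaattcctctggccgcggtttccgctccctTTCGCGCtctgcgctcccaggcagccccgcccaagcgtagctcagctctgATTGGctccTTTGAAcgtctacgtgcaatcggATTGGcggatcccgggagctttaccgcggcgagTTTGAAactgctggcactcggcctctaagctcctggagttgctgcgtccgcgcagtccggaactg
Top2a: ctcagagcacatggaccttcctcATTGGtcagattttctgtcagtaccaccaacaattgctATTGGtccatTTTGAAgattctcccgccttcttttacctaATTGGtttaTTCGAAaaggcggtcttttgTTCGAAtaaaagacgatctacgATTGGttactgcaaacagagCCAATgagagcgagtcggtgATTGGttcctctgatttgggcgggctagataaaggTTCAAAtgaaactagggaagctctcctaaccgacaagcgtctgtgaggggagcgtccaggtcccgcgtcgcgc
Cdc20: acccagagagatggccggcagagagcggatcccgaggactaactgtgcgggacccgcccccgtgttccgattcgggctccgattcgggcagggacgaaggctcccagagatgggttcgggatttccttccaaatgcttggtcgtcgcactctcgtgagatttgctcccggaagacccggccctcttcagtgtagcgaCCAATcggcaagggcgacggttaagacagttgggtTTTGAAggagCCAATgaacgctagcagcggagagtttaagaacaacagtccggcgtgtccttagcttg

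The Mcm5 window held 3 E2F words and 3 CCAAT boxes, and that of Mcm6 held 5 E2F words and 2 CCAAT boxes, where overlapping words were each counted. Neither held a CHR word. The Top2a window held 4 CHR words and 6 CCAAT boxes with no E2F word, and that of Cdc20 1 CHR word and 2 CCAAT boxes. Cdk1 held both kinds, with 2 E2F words and 2 CHR words. Of the 59 members, 46 had an entry in the promoter table. An E2F word was present for 15 of 23 S phase members (65.2%), 2 of 21 mitotic members (9.52%) and 10.9% of all 27025 genes with an entry (9.57% of all 32851 promoters). A CHR word was present for 5 S phase members (21.7%), 16 mitotic members (76.2%) and 21.7% of all genes (19.2% of promoters). A CCAAT box was present for 60.9% of S phase members, 81% of mitotic members and 41.1% of all genes (37.4% of promoters). These are matches of letters in a window, and binding was not measured.

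The series holds 2 tables under the same 10 titles, scanner signals with detection p-values and the authors' normalised log2 values, and their columns did not match by heading. Over 9403 probes the like-named PC columns correlated at 0.961, but the like-named OPC, p5, p15 and p25 columns only at 0.832, 0.862, 0.837 and 0.849. The signal columns headed p15 matched the value columns headed OPC at 0.964, and those headed OPC and p5 matched the value columns headed p25 best, at 0.865 and 0.885. Signal columns headed p25 matched their like-named value columns best, but only at 0.849. Signal columns headed OPC, p5 and p25 thus had no match as close as that of PC. Whether both tables hold the same arrays is therefore not shown. A call that both tables made under 1 heading may therefore rest on different samples and is not counted as support. No column was reassigned, and counts of called members over the whole list are therefore given from each table under that table's own headings. For some roles and single genes only the signal table is described. Mean signal per array ran from 268.3 and 299 on the p25 arrays to 388.5 on a PC array, and 45.7% to 49.2% of probes were detected. Replicate arrays correlated at 0.997 or 0.998 in the signal table and at 0.908 (p5) to 0.995 in the value table, and no columns were identical. Of 10 pericyte markers, 5 were detected in PC (Pdgfrb, Acta2, Anpep, Mcam and Tagln). The other 5 were not, namely Rgs5 and Des, defining pericyte genes, and Kcnj8, Abcc9 and Cnn1. Acta2 and Mcam were detected in every group, and the signal of Mcam was 6.00 in PC against 11.25 in OPC. Of 6 endothelial markers with a probe, 2 were detected in PC. These were Flt1, detected in every group and highest in PC (10.65), and Cdh5, on 1 PC array. Pecam1, Kdr, Tek and Tie1 were detected in no group, and neither were microglial markers. Progenitor markers were detected for 7 of 8 genes with a probe in OPC, 2 in PC, 6 at p5, 8 at p15 and 7 at p25. Their mean signal was highest at p15 (10.92, against 8.34 in OPC), though Cspg4 and Gpr17 were not highest there. Nkx2-2 stood at 10.93 at p15 and was not detected in OPC. In the value table the progenitor mean was highest under the heading OPC (11.07, against 9.89 at p15). Myelinating cell markers were detected for 6 of 7 genes in OPC, 5 at p5, 4 at p15 and 7 at p25. Astrocyte markers were detected for 6 of 7 genes at p15, against 3 in PC, 4 in OPC, 4 at p5 and 5 at p25.

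Probes existed for 54 of the 59 members, 92 probes in all. None carried the symbols Gins1, Gins2, Rfc3, Ccnb1 or Aurkb. Pola1, Ccnb2, Bub1, Kif20a and Cenpe did not reach the detection filter, a detection p under 0.01 on at least 2 arrays. The other 49 members (25 S phase, 21 mitotic and 3 other) were tested, each by its probe of highest mean signal. A member was called changed when limma's moderated test gave an adjusted p under 0.05 over all 9778 genes tested. Of the 49, 45 were detected on all 10 arrays, and Cdc25b, Ttk, Gmnn and Ube2c missed detection on 1 or both p25 arrays. Levels and differences below are on the log2 scale, differences are given with their standard error, and levels of different genes are not set against each other.

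In the signal table, p25 was the lowest of the 5 groups for 45 of the 49 members, including all 21 mitotic members. Both p25 arrays lay below the other 8 arrays for 43 members. The p15 group was highest for 28 members and p5 for 15. In the value table p25 was lowest for only 2 members and PC for 28, and p15 was highest for 29. These orders of groups and arrays were counted for the members only. How often all tested genes show them is not known. The heat map of member levels shows the p25 block as the main disagreement between the tables.

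**Figure D1:**
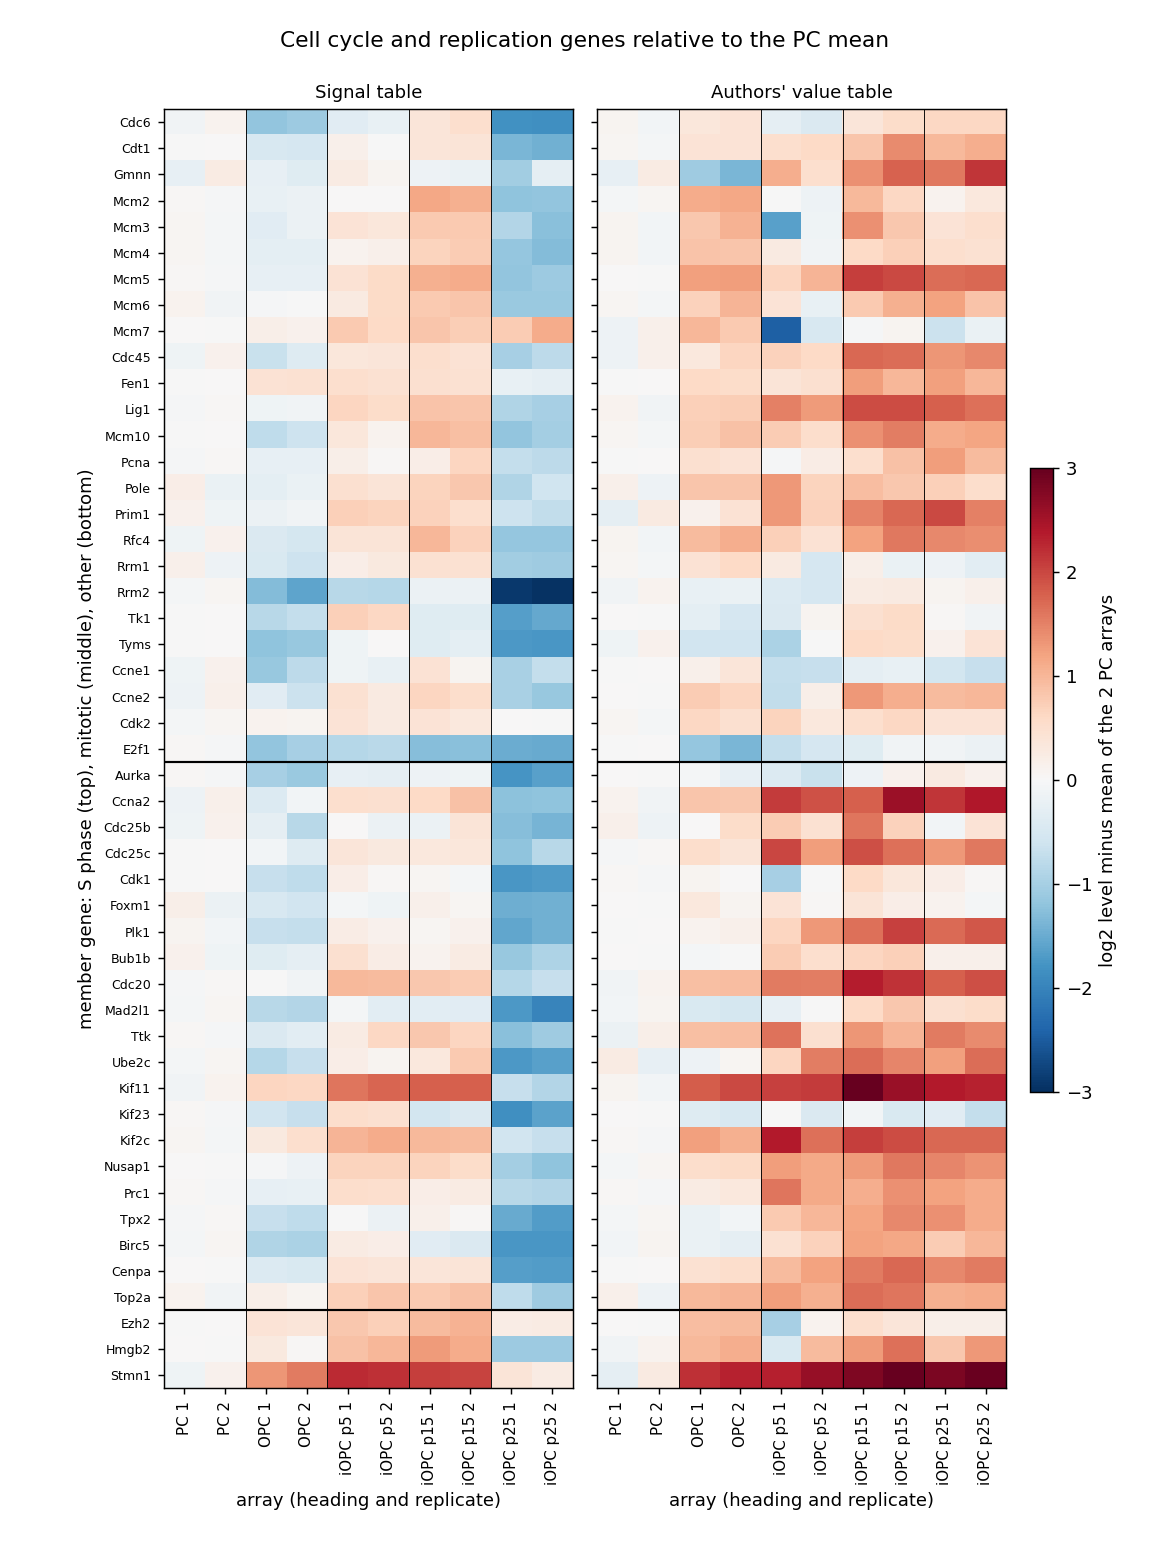
Log2 level of each tested member on each array, minus the mean of the 2 PC arrays of the same table, with S phase members at the top, mitotic members in the middle and Ezh2, Hmgb2 and Stmn1 at the bottom. Blue p25 columns in the signal table stand opposite mostly red p25 columns in the authors' value table.

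For OPC against PC in the signal table, 5 of 49 members were called higher, against 35% of all 9778 genes, and 29 lower, against 32.8%, with a median member difference of -0.32. On the authors' log2 scale, 20 of 49 members were called higher, against 30.6% of all 9778 genes, and 3 lower, against 25.8%, with a median of 0.49. Ezh2, Fen1, Kif11, Kif2c and Stmn1 were called higher in OPC in both tables, and E2f1 and Mad2l1 lower in both, against 18.8% and 17.3% of all 9778 genes. By the value table the calls of Ezh2, Fen1 and Mad2l1 were lost in 10, 5 and 5 of 16 alternatives. Cdc45, Cenpa, Mcm10, Mcm2, Mcm4, Mcm5 and Rfc4 were called lower in the signal table and higher in the value table, against 2.67% of all genes, and for 5 of these 7 (all but Mcm10 and Rfc4) 1 of the 2 calls was lost in at least 1 alternative, led by Cdc45 in the value table (10 of 16). The 20 calls in the value table fell to 12, 12, 12 and 11 without PC replicate 1, PC replicate 2, OPC replicate 1 and OPC replicate 2.

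For p5 against PC in the signal table, 29 of 49 members were called higher, against 35.8% of all 9778 genes, and 4 lower, against 30.7%, and the median was 0.35. From the authors' values, 25 of 49 members were called higher, against 30.2% of all 9778 genes, and 4 lower, against 24.1%, and the median was 0.57. Both tables had 21 members called higher, against 21.2% of all genes, and 3 called lower (Aurka, E2f1 and Rrm2), against 18.1%. Of the 21, 7 kept both calls in every alternative, namely Kif11, Kif2c, Lig1, Mcm5, Nusap1, Stmn1 and Top2a. The other 14 lost a call in at least 1 alternative, and the calls lost most often were those of Fen1 (13 of 16), Cdk2 (10 of 16), Rfc4 (9 of 16) and Ttk (9 of 16) in the value table and of Cdc25c (11 of 19) in the signal table. All 3 lower members lost a call in at least 1 alternative, Rrm2 in 7 of 16 in the value table. None was called lower in the signal table and higher in the value table, or the reverse, against 1.59% and 1.87% of all genes. The 4 lower calls of the value table became 2 without PC replicate 1, 1 without PC replicate 2 and 8 without p5 replicate 2, and the 4 of the signal table became 2 without p5 replicate 1.

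For p15 against PC in the signal table, 33 of 49 members were called higher, against 40.3% of all 9778 genes, and 6 lower, against 33.7%, with a median of 0.46. Within the value table, 37 of 49 members were called higher, against 29% of all 9778 genes, and 0 lower, against 24.5%, with a median of 1.14; the count of lower members at an unadjusted p under 0.05 was also 0. Both tables had the same 29 members called higher, against 20% of all genes, including all 8 tested fork proteins. Of the 29, 17 kept both calls in every alternative, and the most often lost were the value call of Cdc6 (9 of 17), the signal call of Cdc25c (5 of 18) and the value call of Cdk2 (4 of 17), followed by Hmgb2, Mcm4, Mcm6, Pcna and Ttk in the value table and Prc1 in the signal table at 3 each. Birc5, Mad2l1 and Tk1 were called lower in the signal table and higher in the value table, where the call of Tk1 was lost in 11 of 17 alternatives; 2.88% of all genes had such opposite calls. The signal arrays headed p15 also had the highest mean level of the 7 astrocyte markers (7.79, against 5.72 to 6.83 in the other groups). Aqp4 and Slc1a2 were detected on no other arrays, Slc1a3 stood at 12.45 against 5.36 to 8.54, and Aldh1l1 was also highest at p15 (7.11). The other markers of that list were not highest at p15. Gfap was not detected at p15, and S100b stood at 6.37 against 9.45 in OPC, 9.66 at p5 and 11.09 at p25. Gja1 stood at 9.81 at p15 against 11.85 in PC. Of the 7 neuron markers 3 were detected at p15, Syt1 on no other arrays, while Rbfox3, Snap25, Nefl and Stmn2 were detected nowhere. In the authors' values the astrocyte mean was highest under the heading OPC (7.43, against 4.90 at p15). Their part in the p15 levels of the members was not tested.

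For p25 against PC in the signal table, 3 of 49 members were called higher, against 36.8% of all 9778 genes, and 45 lower, against 35.7%, and the median was -1.10 against 0.01 for all genes. With the authors' values, 30 of 49 members were called higher, against 29.1% of all 9778 genes, and 1 lower, against 24.3%, and the median was 1.03 against 0.09 for all genes. Opposite calls, lower in the signal table and higher in the value table, were made for 29 members, against 3.32% of all 9778 genes: Birc5, Ccna2, Ccne2, Cdc20, Cdc25c, Cdc45, Cdc6, Cdt1, Cenpa, Fen1, Gmnn, Kif11, Kif2c, Lig1, Mad2l1, Mcm10, Mcm4, Mcm5, Mcm6, Nusap1, Pcna, Plk1, Prc1, Prim1, Rfc4, Top2a, Tpx2, Ttk and Ube2c. Of these 29, 22 kept both calls in every alternative. The value call of Mcm4 was lost in 11 of 17 and turned to -0.027 with probes averaged, those of Mad2l1 and Ccne2 were lost in 5 and 4, and those of Mcm6, Cdc6 and Ttk and the signal call of Gmnn in 1 or 2. Stmn1 alone was called higher in both, and Ccne1 alone lower in both, against 19.5% and 18% of all genes. The signal call of Stmn1 was lost in 3 of 19 alternatives and the value call of Ccne1 in 1 of 17. The 3 higher calls of the signal table fell to 1 without PC replicate 1. In the signal table the mean level of the 7 myelinating cell markers was also highest at p25 (11.14, against 4.86 in PC and 8.54 in OPC; 8.55 at p25 in the value table), and mean signal was lowest on those arrays. The part of either in the fall of these genes was not tested. In RNA from a culture, fewer dividing cells and less RNA of these genes per cell cannot be told apart. With arrays scaled to a common median in place of quantile normalisation, the median of all genes at p25 against PC moved to -0.20 and the calls over all genes from 3597 higher and 3486 lower to 2580 and 4485, while the member median was -1.41.

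**Figure D2:**
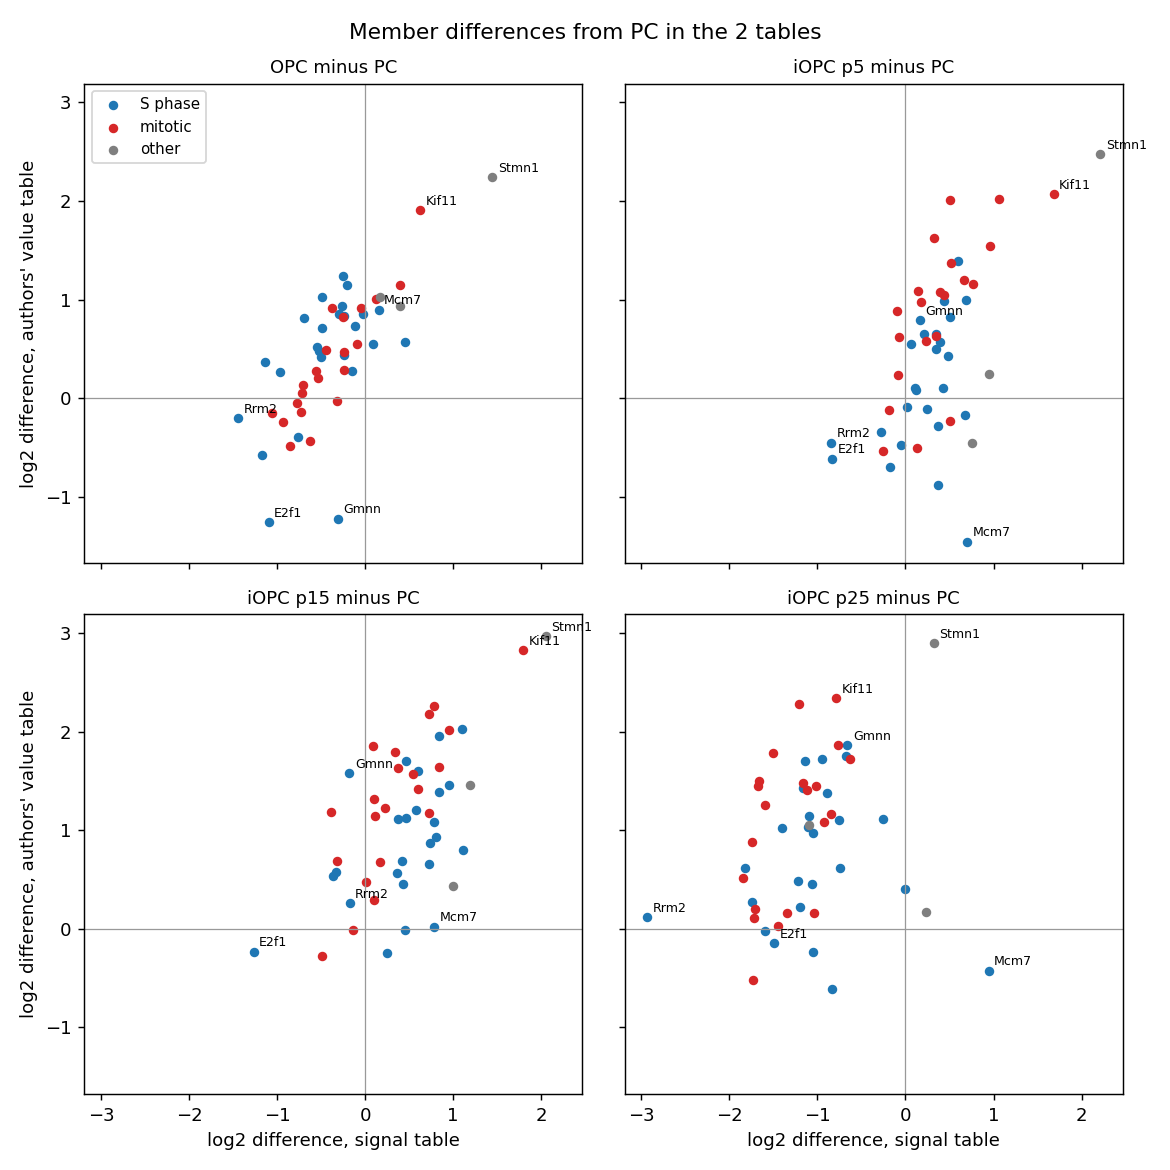
Log2 difference from PC of each of the 49 members, signal table on the horizontal axis and authors' value table on the vertical axis, for OPC, p5, p15 and p25. At p25 most points lie left of 0 in the signal table and above 0 in the value table.

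Origin licensing genes were lower at p25 and, for most, highest at p15 in the signal table. Of 9 licensing members, 8 were called lower and 1 higher at p25 against PC, against 35.7% and 36.8% of all genes. At p15, 8 were called higher, against 40.3% of all genes. The level of Mcm2, a helicase subunit, was 8.65 and 8.56 in PC, 8.37 and 8.42 in OPC, 8.62 and 8.63 at p5, 9.76 and 9.66 at p15, and 7.41 and 7.41 at p25. Both p15 arrays lay above and both p25 arrays below all others, and Mcm2 differed from PC by 1.11 ± 0.08 (adjusted p = 2.44e-07) at p15 and -1.19 ± 0.08 (adjusted p = 1.64e-07) at p25. In the value table its level was 8.81 and 8.91 in PC, 9.98 and 10.03 in OPC, 8.84 and 8.70 at p5, 9.84 and 9.49 at p15, and 8.98 and 9.19 at p25, so that OPC and p15 were high and p25 differed from PC by 0.22 ± 0.17 (adjusted p = 0.314), which was not called. Mcm5, a further helicase subunit whose promoter is shown above, had signal levels of 9.49 and 9.40 in PC, 9.19 and 9.19 in OPC, 9.88 and 10.02 at p5, 10.52 and 10.57 at p15, and 8.25 and 8.37 at p25. The p25 arrays were again lowest, with a difference from PC of -1.14 ± 0.08 (adjusted p = 5.26e-07). Its levels in the value table were 9.76 and 9.72 in PC, 10.96 and 10.98 in OPC, 10.37 and 10.75 at p5, 11.82 and 11.70 at p15, and 11.42 and 11.45 at p25. There the PC arrays were lowest, and p25 exceeded PC by 1.70 ± 0.16 (adjusted p = 7.33e-05). Its lower call in OPC in the signal table, at -0.25 ± 0.08 (adjusted p = 0.0203), was lost in 3 of 18 alternatives (adjusted p up to 0.101), and that of Mcm2, at -0.21 ± 0.08 (adjusted p = 0.0314), in 4 of 18 (up to 0.14).

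Cdc6, the origin loading factor, had signal levels of 7.81 and 8.03 in PC, 6.75 and 6.82 in OPC, 7.58 and 7.70 at p5, 8.29 and 8.42 at p15, and 6.12 and 6.07 at p25. It stood lower in OPC than in PC and lowest at p25, at -1.83 ± 0.10 (adjusted p = 3.78e-08). On the authors' log2 scale its group means were 7.84 in PC, 8.21 in OPC, 7.50 at p5, 8.30 at p15 and 8.46 at p25, and p25 differed from PC by 0.62 ± 0.15 (adjusted p = 0.00886). Without PC replicate 2 that call was lost at an adjusted p of 0.0648. Gmnn, the inhibitor of licensing, was near the detection limit, with signal levels of 5.09 and 5.58 in PC, 5.09 and 4.97 in OPC, 5.57 and 5.42 at p5, 5.18 and 5.13 at p15, and 4.29 and 5.06 at p25. The 2 p25 arrays differed widely, and the lower call at p25, -0.66 ± 0.22 (adjusted p = 0.0207), was lost without PC replicate 2 (adjusted p = 0.172) and without p25 replicate 1 (adjusted p = 0.192). By the value table Gmnn means were 3.98 in PC, 2.76 in OPC, 4.77 at p5, 5.55 at p15 and 5.84 at p25, and p25 was higher than PC by 1.86 ± 0.30 (adjusted p = 0.00127). Mcm7, named after its values were seen, was the licensing member called higher at p25 in the signal table. Its levels were 6.58 and 6.54 in PC, 6.75 and 6.69 in OPC, 7.35 and 7.17 at p5, 7.39 and 7.31 at p15, and 7.33 and 7.68 at p25, with a difference of 0.94 ± 0.12 (adjusted p = 3.05e-05) from PC, opposite to its helicase partners. From the authors' values it differed by -0.42 ± 0.55 (adjusted p = 0.548), and its 2 p5 arrays there, at 4.35 and 6.32, lay far apart.

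All 8 tested fork proteins were called lower at p25 and higher at p15 than PC in the signal table, and 7 of the 8 were called higher at p25 in the value table. Of all genes, 35.7% and 40.3% had these calls in the signal table, and 29.1% were called higher at p25 in the value table. Rfc4, a subunit of the clamp loader, had signal levels of 8.42 and 8.69 in PC, 8.11 and 8.03 in OPC, 8.94 and 8.95 at p5, 9.54 and 9.24 at p15, and 7.39 and 7.39 at p25. The p25 arrays stood below all others, with a difference of -1.17 ± 0.12 (adjusted p = 5.80e-06), against 1.42 ± 0.19 (adjusted p = 0.000426) in the value table. Mcm10, which acts in starting and sustaining the fork, had signal levels of 7.62 and 7.65 in PC, 6.88 and 7.02 in OPC, 7.97 and 7.73 at p5, 8.64 and 8.54 at p15, and 6.46 and 6.63 at p25. It was lower in OPC (-0.69 ± 0.10 (adjusted p = 0.000158)) and at p25 (-1.09 ± 0.10 (adjusted p = 3.82e-06)), and higher at p15. Within the value table all 4 groups exceeded PC, by 0.82 in OPC, 0.65 at p5, 1.45 at p15 and 1.15 at p25. The sliding clamp Pcna had signal levels of 8.84 and 8.91 in PC, 8.64 and 8.63 in OPC, 9.04 and 8.92 at p5, 9.08 and 9.51 at p15, and 8.15 and 8.08 at p25. The p25 arrays lay below all others, at -0.76 ± 0.12 (adjusted p = 0.000284). With the authors' values Pcna levels were 7.69 and 7.70 in PC, 8.17 and 8.09 in OPC, 7.67 and 7.92 at p5, 8.21 and 8.57 at p15, and 8.95 and 8.63 at p25, and p25 was highest, at 1.10 ± 0.19 (adjusted p = 0.00174). Fen1, the flap nuclease of lagging strand synthesis, changed least of the fork genes, with signal levels of 9.50 and 9.53 in PC, 9.96 and 9.98 in OPC, 10.01 and 9.98 at p5, 9.99 and 9.96 at p15, and 9.29 and 9.23 at p25. OPC, p5 and p15 lay together above PC, and p25 lay below it by a small but called difference of -0.25 ± 0.07 (adjusted p = 0.00876).

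Enzymes of nucleotide supply held the largest fall. Rrm2, the regulated subunit of ribonucleotide reductase, had signal levels of 8.29 and 8.39 in PC, 7.04 and 6.75 in OPC, 7.50 and 7.49 at p5, 8.17 and 8.15 at p15, and 5.45 and 5.37 at p25. PC and p15 were highest, OPC and p5 lower, and p25 lowest, at -2.93 ± 0.10 (adjusted p = 1.18e-09) from PC, the widest range of group means among the 49 members. In the value table its means were 8.52 in PC, 8.32 in OPC, 8.07 at p5, 8.78 at p15 and 8.64 at p25, and the p25 difference of 0.12 ± 0.14 (adjusted p = 0.508) was not called. Tk1, the S phase thymidine kinase, had signal levels of 9.30 and 9.33 in PC, 8.49 and 8.61 in OPC, 10.03 and 9.95 at p5, 8.94 and 8.96 at p15, and 7.66 and 7.78 at p25, so that p5 stood above PC and p15, OPC and p25 below it. The difference from PC was 0.67 ± 0.08 (adjusted p = 3.32e-05) at p5 and -1.59 ± 0.08 (adjusted p = 2.77e-08) at p25. On the authors' log2 scale neither was called (-0.18 and -0.03). Rrm1, the larger subunit of the reductase, had signal levels of 9.91 and 9.61 in PC, 9.29 and 9.14 in OPC, 9.95 and 10.06 at p5, 10.21 and 10.21 at p15, and 8.72 and 8.70 at p25, with p25 lowest (-1.05 ± 0.10 (adjusted p = 6.12e-06)) and OPC next. Tyms, thymidylate synthase, gave -1.74 ± 0.08 (adjusted p = 1.11e-08) at p25. Each of these 4 enzymes was called lower in OPC and at p25 in the signal table, against 32.8% and 35.7% of all genes. At p25 limma called 0 of the 4 in the value table, with 0 also at an unadjusted p under 0.05. Of all genes, 29.1% were called higher and 24.3% lower there.

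Of the genes of S phase entry, E2f1, the activating E2F transcription factor, was highest in PC in both tables. Its signal levels were 9.37 and 9.29 in PC, 8.14 and 8.33 in OPC, 8.48 and 8.52 at p5, 8.06 and 8.07 at p15, and 7.85 and 7.83 at p25. Every other array lay below both PC arrays, with differences of -1.10 ± 0.08 (adjusted p = 9.76e-07) in OPC, -0.83 ± 0.08 (adjusted p = 8.44e-06) at p5, -1.27 ± 0.08 (adjusted p = 1.98e-07) at p15 and -1.49 ± 0.08 (adjusted p = 6.33e-08) at p25. Its value levels were 9.58 and 9.60 in PC, 8.43 and 8.23 in OPC, 8.86 and 9.09 at p5, 9.23 and 9.48 at p15, and 9.48 and 9.40 at p25. In that table OPC (-1.26 ± 0.16 (adjusted p = 0.000308)) and p5 (-0.61 ± 0.16 (adjusted p = 0.014)) were called lower, the latter not without PC replicate 1 or PC replicate 2 (adjusted p up to 0.0682), and p15 and p25 were not called. Ccne2, a cyclin E, had signal levels of 6.08 and 6.40 in PC, 5.90 and 5.60 in OPC, 6.71 and 6.52 at p5, 6.88 and 6.77 at p15, and 5.27 and 5.10 at p25, with p25 lowest (-1.05 ± 0.14 (adjusted p = 4.89e-05)). Cdk2, the kinase of cyclin E, had the narrowest range of group means of the 49 members, with signal levels of 9.98 and 10.09 in PC, 10.14 and 10.11 in OPC, 10.45 and 10.32 at p5, 10.44 and 10.35 at p15, and 10.05 and 10.02 at p25. Its p25 level did not differ detectably from PC (-0.00 ± 0.08 (adjusted p = 0.984)), and it was not called in the value table either (0.40 ± 0.16 (adjusted p = 0.067)).

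Genes of mitotic entry fell together at p25 in the signal table. All 7 tested were called lower than PC there, against 35.7% of all genes, with a median of -1.45. By the value table limma called 3 of the 7 higher and 0 lower, against 29.1% and 24.3% of all genes. The same numbers of the 7 passed an unadjusted p under 0.05. Cdk1, the mitotic kinase, had signal levels of 10.01 and 10.01 in PC, 9.33 and 9.26 in OPC, 10.22 and 10.05 at p5, 10.07 and 9.97 at p15, and 8.28 and 8.30 at p25. Both p5 arrays lay slightly above PC, and the p15 arrays overlapped both groups. OPC lay below these 3 groups, and p25 lay lowest, at -1.72 ± 0.08 (adjusted p = 2.00e-08). From the authors' values its levels were 10.43 and 10.36 in PC, 10.48 and 10.40 in OPC, 9.40 and 10.38 at p5, 11.00 and 10.74 at p15, and 10.59 and 10.42 at p25, where p5 replicate 1 lay lowest and p15 highest, and p25 differed from PC by 0.11 ± 0.29 (adjusted p = 0.774). The lower call of Cdk1 in OPC in the signal table (-0.72 ± 0.08 (adjusted p = 2.64e-05)) was lost when all its passing probes were averaged (adjusted p = 0.446). Both further passing probes of Cdk1, each detected on 3 arrays, had higher signal at p25 than in PC (by 0.15 and 0.82). Ccna2, cyclin A2, had signal levels of 6.08 and 6.37 in PC, 5.82 and 6.14 in OPC, 6.74 and 6.71 at p5, 6.81 and 7.10 at p15, and 5.01 and 5.03 at p25. It was lowest at p25 (-1.21 ± 0.14 (adjusted p = 1.65e-05)). Its value levels were 4.71 and 4.52 in PC, 5.44 and 5.44 in OPC, 6.72 and 6.52 at p5, 6.41 and 7.18 at p15, and 6.77 and 7.02 at p25, with every non-PC array above PC and a p25 difference of 2.28 ± 0.25 (adjusted p = 0.000171). Foxm1, a transcription factor of mitotic genes, had signal levels of 7.93 and 7.60 in PC, 7.28 and 7.19 in OPC, 7.71 and 7.64 at p5, 7.92 and 7.82 at p15, and 6.31 and 6.33 at p25, and p25 lay lowest at -1.45 ± 0.11 (adjusted p = 6.23e-07). Its means on the authors' scale were 8.02 in PC, 8.22 in OPC, 8.25 at p5, 8.31 at p15 and 8.04 at p25, its 10 value levels lay within 7.97 to 8.43, and no contrast with PC was called. Cdc25c, a phosphatase that activates Cdk1, had signal levels of 6.32 and 6.33 in PC, 6.24 and 5.95 in OPC, 6.69 and 6.61 at p5, 6.65 and 6.68 at p15, and 5.13 and 5.50 at p25 and a p25 difference of -1.01 ± 0.13 (adjusted p = 4.35e-05). Cdc25b, a related phosphatase, was not detected on the p25 arrays and was at least 1.95-fold lower there than in PC (adjusted p = 0.000153). This bound sets PC against the dimmest detected signal of each p25 array.

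**Figure D3:**
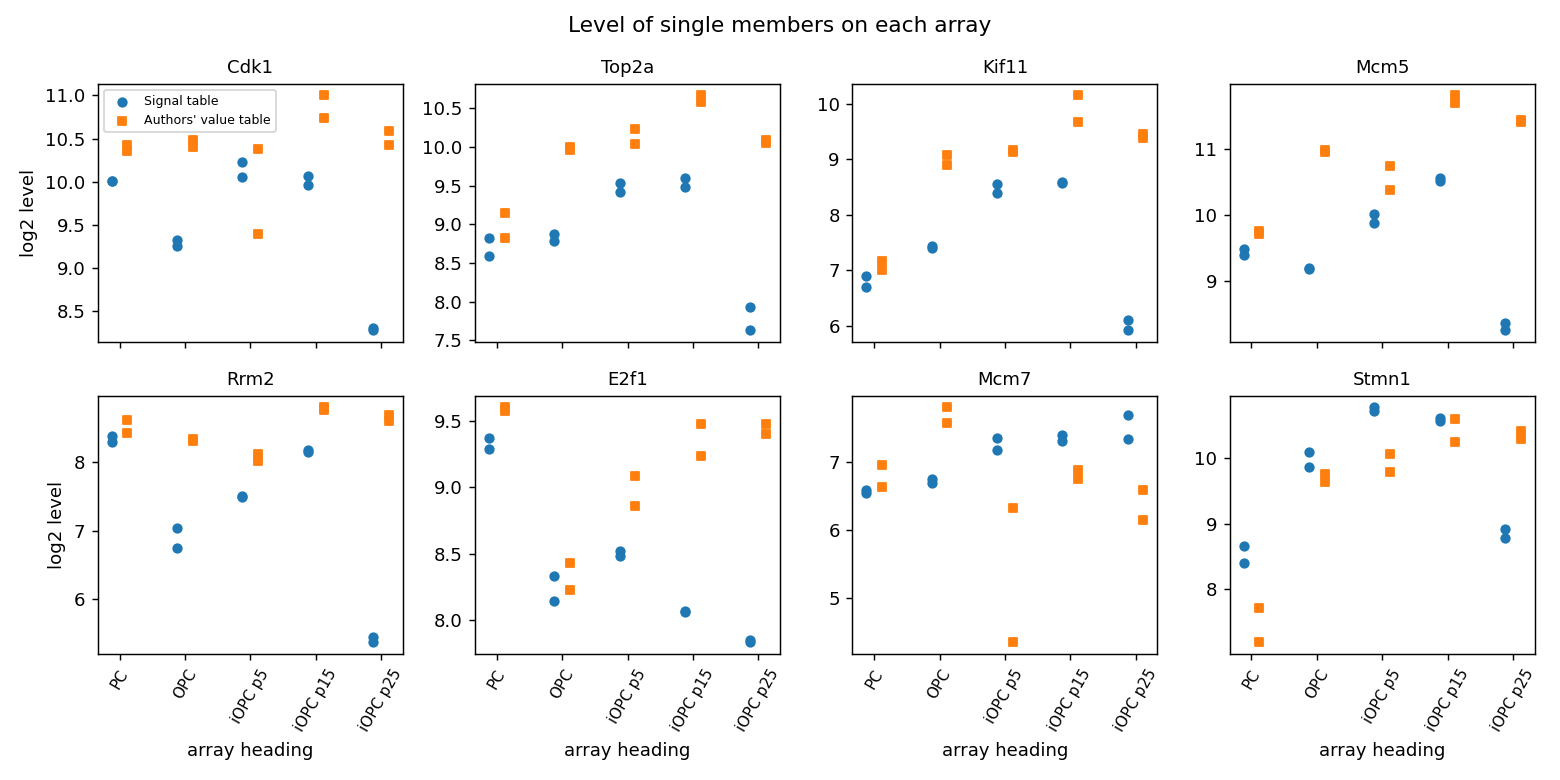
Log2 level of 8 members on each array, signal table as circles and authors' value table as squares, 2 arrays per heading. Cdk1, Top2a, Kif11, Mcm5 and Rrm2 drop at p25 in the signal table only, E2f1 is highest in PC in both tables, and Stmn1 is lowest in PC.

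Of the 5 tested checkpoint and anaphase genes, all were called lower at p25 than PC in the signal table and 4 higher in the value table. These calls were made for 35.7% and 29.1% of all genes. Ube2c, the ubiquitin-conjugating enzyme of the anaphase-promoting complex, had signal levels of 6.51 and 6.63 in PC, 5.72 and 5.88 in OPC, 6.77 and 6.64 at p5, 6.89 and 7.35 at p15, and 4.84 and 4.95 at p25. Both p25 arrays lay below all others, at -1.67 ± 0.14 (adjusted p = 1.34e-06), while the value table gave 1.45 ± 0.32 (adjusted p = 0.00628). Ttk, the kinase that starts the spindle checkpoint, had signal levels of 5.65 and 5.57 in PC, 5.17 and 5.30 in OPC, 5.87 and 6.23 at p5, 6.41 and 6.26 at p15, and 4.36 and 4.54 at p25. It was not detected at p25 and was at least 1.61-fold lower than in PC and at least 2.66-fold lower than at p15 (adjusted p = 1.06e-05 and 2.23e-07). Within the value table Ttk was higher at p25 than in PC, at 1.48 ± 0.35 (adjusted p = 0.00798), a call lost without PC replicate 1 (adjusted p = 0.0547). Bub1b, a checkpoint kinase-like protein, had signal levels of 6.98 and 6.71 in PC, 6.48 and 6.57 in OPC, 7.33 and 7.07 at p5, 6.95 and 7.08 at p15, and 5.71 and 5.91 at p25 and a p25 difference of -1.04 ± 0.12 (adjusted p = 2.50e-05), against 0.16 ± 0.15 (adjusted p = 0.389) in the value table, not called. Cdc20, the activator of the anaphase-promoting complex, rose at p5 by 0.96 ± 0.08 (adjusted p = 2.31e-06) in the signal table and by 1.55 ± 0.15 (adjusted p = 7.78e-05) in the value table. With probes averaged the value call at p5 was lost, at 0.61 (adjusted p = 0.248). There 1 further probe went from 6.32 in PC to 5.13 at p5, while its others rose. At p25 Cdc20 was lower in the signal table (-0.77 ± 0.08 (adjusted p = 1.06e-05)) and higher in the value table (1.86 ± 0.15 (adjusted p = 2.66e-05)).

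Most spindle genes were higher at p5 under each table's own headings. Of 6 tested, 5 were called higher at p5 than PC in each table, against 35.8% of all genes in the signal table and 30.2% in the value table. The medians were 0.59 in the signal table and 1.28 in the value table. Kif11, the motor that pushes spindle poles apart, had signal levels of 6.69 and 6.89 in PC, 7.43 and 7.40 in OPC, 8.40 and 8.55 at p5, 8.59 and 8.58 at p15, and 6.09 and 5.91 at p25. OPC lay above PC, p5 and p15 above OPC, and p25 below PC. The differences from PC were 0.62 ± 0.10 (adjusted p = 0.000234) in OPC, 1.68 ± 0.10 (adjusted p = 1.09e-07) at p5, 1.79 ± 0.10 (adjusted p = 4.05e-08) at p15 and -0.79 ± 0.10 (adjusted p = 3.45e-05) at p25. With the authors' values they were 1.91, 2.07, 2.83 and 2.34, all called higher. Kif23, a motor of the central spindle, had signal levels of 8.73 and 8.66 in PC, 8.13 and 8.01 in OPC, 9.22 and 9.17 at p5, 8.14 and 8.27 at p15, and 6.85 and 7.08 at p25, so that p5 was highest and p15 and OPC lay below PC. Its p25 difference was -1.73 ± 0.10 (adjusted p = 6.33e-08), and in the value table no difference from PC was called (from -0.52 at p25 to -0.23 at p5). Prc1, which bundles central spindle microtubules, had signal levels of 10.82 and 10.77 in PC, 10.55 and 10.56 in OPC, 11.32 and 11.29 at p5, 10.98 and 11.05 at p15, and 9.97 and 9.92 at p25 and a p25 difference of -0.85 ± 0.07 (adjusted p = 1.83e-06).

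The 3 tested chromosome proteins were called higher at p5 and lower at p25 than PC in the signal table, and higher at both in the value table. Of all genes, 35.8% and 35.7% had these calls in the signal table, and 30.2% and 29.1% in the value table. Birc5 (survivin), a subunit of the chromosomal passenger complex, had signal levels of 9.66 and 9.79 in PC, 8.82 and 8.78 in OPC, 9.98 and 9.93 at p5, 9.40 and 9.28 at p15, and 7.98 and 7.98 at p25. OPC and p15 lay below PC, p5 slightly above it (0.23 ± 0.08 (adjusted p = 0.0262), lost in 4 of 19 alternatives with adjusted p up to 0.622), and p25 lowest (-1.75 ± 0.08 (adjusted p = 1.25e-08)). Its value levels were 9.93 and 10.07 in PC, 9.79 and 9.73 in OPC, 10.47 and 10.70 at p5, 11.21 and 11.17 at p15, and 10.76 and 10.99 at p25, with p15 highest and p25 above PC by 0.88 ± 0.16 (adjusted p = 0.00217). Cenpa, the centromeric histone, had signal levels of 11.19 and 11.18 in PC, 10.77 and 10.72 in OPC, 11.60 and 11.55 at p5, 11.56 and 11.57 at p15, and 9.54 and 9.51 at p25. Its p25 arrays lay below all others, at -1.66 ± 0.07 (adjusted p = 6.77e-09) in the signal table against 1.50 ± 0.15 (adjusted p = 0.000105) in the value table. Top2a, the topoisomerase that untangles sister chromatids, had signal levels of 8.82 and 8.59 in PC, 8.87 and 8.78 in OPC, 9.41 and 9.53 at p5, 9.49 and 9.59 at p15, and 7.93 and 7.63 at p25. PC and OPC lay close together, p5 and p15 above them, and p25 below, with differences of 0.77 ± 0.12 (adjusted p = 0.000198) at p5 and -0.92 ± 0.12 (adjusted p = 4.18e-05) at p25. Its value levels were 9.14 and 8.82 in PC, 9.96 and 10.00 in OPC, 10.23 and 10.04 at p5, 10.67 and 10.58 at p15, and 10.05 and 10.09 at p25. All non-PC arrays of that table lay above PC, with p25 at 1.09 ± 0.16 (adjusted p = 0.000806).

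Stmn1 (stathmin), which destabilises microtubules, was called higher than PC in all 4 groups in both tables. Its signal levels were 8.40 and 8.66 in PC, 9.86 and 10.09 in OPC, 10.77 and 10.71 at p5, 10.61 and 10.57 at p15, and 8.91 and 8.78 at p25. The largest differences were 2.21 ± 0.11 (adjusted p = 3.00e-08) at p5 and 2.06 ± 0.11 (adjusted p = 3.39e-08) at p15. The p25 difference of 0.32 ± 0.11 (adjusted p = 0.0235) was lost under median scaling (adjusted p = 0.996), without PC replicate 1 (adjusted p = 0.187) and without p25 replicate 1 (adjusted p = 0.124). In the value table it was 2.90 ± 0.22 (adjusted p = 2.32e-05). Hmgb2, a chromatin protein of dividing cells, had signal levels of 8.49 and 8.49 in PC, 8.79 and 8.54 in OPC, 9.38 and 9.50 at p5, 9.76 and 9.61 at p15, and 7.39 and 7.40 at p25, with p5 and p15 above PC and p25 below it (-1.09 ± 0.10 (adjusted p = 3.16e-06)). Ezh2, the histone methyltransferase of the Polycomb complex, had its highest value table mean in OPC (10.37) and its lowest at p5 (8.99, against 9.44 in PC). In the signal table its levels were 9.03 and 9.04 in PC, 9.45 and 9.40 in OPC, 9.84 and 9.74 at p5, 9.99 and 10.06 at p15, and 9.25 and 9.28 at p25. It was highest at p15 (0.99 ± 0.08 (adjusted p = 6.29e-07)), and its p25 difference of 0.23 ± 0.08 (adjusted p = 0.0185) turned to -0.10 under median scaling (adjusted p = 0.437) and was lost without any 1 of PC replicate 1, PC replicate 2 or p25 replicate 2 (adjusted p 0.0575, 0.0511 and 0.0722) and with probes averaged (adjusted p = 0.214).

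Against OPC, the signal table put nearly all members higher at p5 and p15 and lower at p25. For p5, 46 of 49 members were called higher, against 21.1% of all 9778 genes, and 0 lower, against 18.7%, with a median of 0.75. For p15, 45 of 49 members were called higher, against 36.2% of all 9778 genes, and 0 lower, against 30.9%, with a median of 0.82. For p25, 1 of 49 members were called higher, against 26.8% of all 9778 genes, and 44 lower, against 28.9%, with a median of -0.80. The lower counts at p5 and p15 at an unadjusted p under 0.05 were also 0, and 1 member was called lower at p15 without OPC replicate 1. With median scaling the calls over all genes for p25 against OPC moved from 2617 higher and 2825 lower to 1539 and 4099.

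In the value table the calls for p5 against OPC differed in direction among the members. For p5 against OPC, 15 of 49 members were called higher, against 25.8% of all 9778 genes, and 9 lower, against 23.3%. The 15 higher calls comprised 12 mitotic and 3 S phase members, and the 9 lower calls 8 S phase members and Ezh2. Another 14 of the 25 S phase and 9 of the 21 mitotic members were not called, and the phases were not tested against each other. Over the alternatives the mitotic higher count ran from 6 to 13 and the S phase lower count from 5 to 11. Mcm2, Mcm3, Mcm4, Mcm6, Mcm7, Cdc6, Ccne1 and Ccne2 were the S phase members called lower, Mcm2 by -1.23 ± 0.17 (adjusted p = 0.000668), and each of them was called higher in the signal table. Without OPC replicate 1 or OPC replicate 2 the 15 became 8. For p15, 28 of 49 members were called higher, against 24.5% of all 9778 genes, and 1 lower, against 23.8%. For p25, 22 of 49 members were called higher, against 24.7% of all 9778 genes, and 3 lower, against 23.5%, the 3 being Mcm2, Rrm1 and Ccne1. The single lower member at p15, Ccne1, was not called without OPC replicate 2, p15 replicate 1 or p15 replicate 2 and became 4 without p5 replicate 1 or p5 replicate 2, and the 3 at p25 became 6 without either p5 replicate.

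Between p5 and p15, 7 of 9 licensing genes were called higher in the signal table and 4 of 9 in the value table. By the signal table, 15 of 49 members were called higher, against 32.6% of all 9778 genes, and 6 lower, against 30.2%. The 15 comprised 13 S phase members, 1 mitotic member (Ube2c) and Ezh2, and the 6 comprised Tk1, Tyms, E2f1, Kif23, Birc5 and Prc1. The licensing genes were led by Mcm2 (1.09 ± 0.08 (adjusted p = 4.38e-07)), with Cdc6 at 0.71 ± 0.10 (adjusted p = 8.82e-05) and Mcm5 at 0.59 ± 0.08 (adjusted p = 0.000112). On the authors' log2 scale, 13 of 49 members were called higher, against 3.65% of all 9778 genes, and 0 lower, against 6.67%, and the 13 comprised 10 S phase and 3 mitotic members. Over the alternatives the S phase higher count ran from 8 to 15 in the signal table and from 1 to 17 in the value table, and the mitotic one from 0 to 3 and from 0 to 9. Cdc6, Mcm10, Mcm2, Mcm3, Mcm5, Rfc4 and Rrm2 were called higher in both tables. The 15 calls fell to 9 without p5 replicate 2 or p15 replicate 2. The 13 became 6 without OPC replicate 1 or 2, 24 without p5 replicate 2, 1 without p15 replicate 1 and 3 without p15 replicate 2, and at an unadjusted p under 0.05 they were 33, with 0 lower.

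From p15 to p25 in the signal table, 0 of 49 members were called higher, against 33.5% of all 9778 genes, and 47 lower, against 38.3%, with a median of -1.59. From p5 to p25, 0 of 49 members were called higher, against 26.4% of all 9778 genes, and 48 lower, against 29.4%, with a median of -1.50. At an unadjusted p under 0.05 limma also gave 0 higher members in both. Kif11 (-2.58 ± 0.10 (adjusted p = 2.66e-09)) and Rrm2 (-2.76 ± 0.10 (adjusted p = 1.79e-09)) had the widest falls from p15. Mcm7 was not called in either comparison, at 0.16 ± 0.12 (adjusted p = 0.245) and 0.24 ± 0.12 (adjusted p = 0.0972), but was called higher without p25 replicate 1. With median scaling the calls over all genes moved from 3272 higher and 3746 lower to 2385 and 4921 from p15, and from 2584 and 2876 to 1630 and 4041 from p5. By the value table from p15 to p25, 0 of 49 members were called higher, against 0.112% of all 9778 genes, and 0 lower, against 0.0102%, with 0 higher and 8 lower at an unadjusted p under 0.05 in limma, the tool used throughout. From p5 to p25, 10 of 49 members were called higher, against 3.35% of all 9778 genes, and 0 lower, against 5.55%. The 10 were Aurka, Ccne2, Cdc45, Cdc6, Fen1, Mad2l1, Mcm5, Pcna, Rfc4 and Rrm2, each of which was called lower in the signal table. Their count was 3 without either PC array, 1 without either OPC array, 18 without p5 replicate 2, 6 without either p15 array and 0 without either p25 array, while 3 members were called lower without p5 replicate 2 and 1 was lower at an unadjusted p under 0.05.

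The balance of S phase and mitotic members was lowest on the p5 arrays in both tables. In the signal table the mean of the S phase members minus that of the mitotic members was -0.04 and -0.01 on the PC arrays, -0.11 and -0.04 in OPC, -0.21 and -0.20 at p5, 0.10 and 0.03 at p15 and 0.23 and 0.27 at p25. From the authors' values it was -0.06 and -0.01 in PC, 0.0049 and 0.01 in OPC, -0.88 and -0.73 at p5, -0.49 and -0.40 at p15 and -0.36 and -0.40 at p25. The p25 arrays had the highest balance in the signal table but not in the value table. These sums describe the arrays and were given no test.

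**Figure D4:**
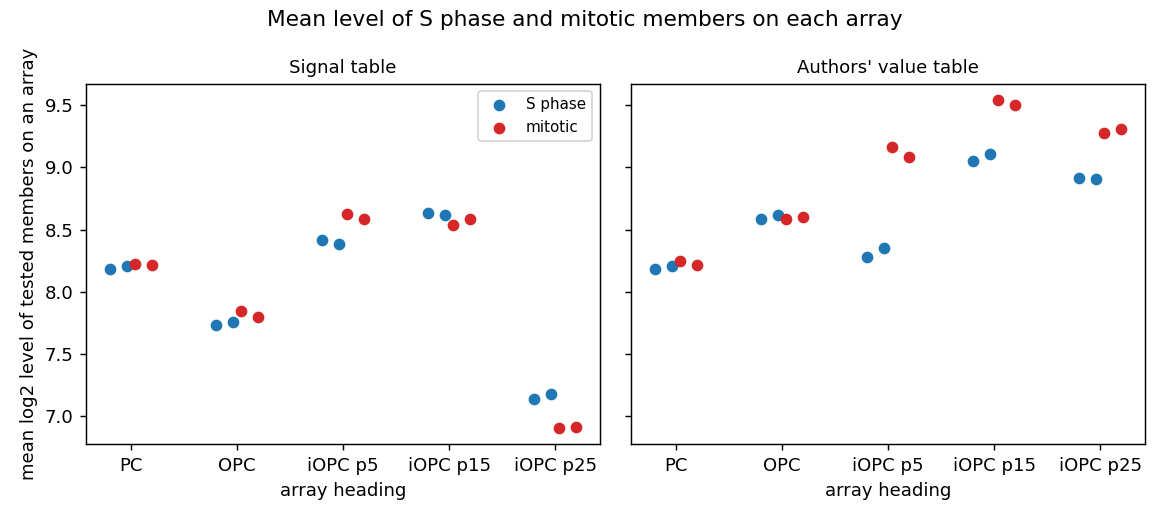
Mean log2 level of the 25 S phase (blue) and 21 mitotic (red) members on each array, signal table left and authors' value table right, 2 arrays per heading. The 2 means come from different probes, so their gap is read only across arrays. The S phase mean minus the mitotic mean is lowest on the p5 arrays in both tables, and the p25 arrays are lowest in the signal table only.

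Other genes of the same processes were counted from lists of 46 replication and 55 mitotic genes, of which 35 and 37 were tested. At p25 against PC in the signal table, 4 of the replication genes were called higher and 24 lower (median -0.44), and 1 of the mitotic genes higher and 32 lower (median -1.16). The widest falls were those of Spc25, a kinetochore protein, at -2.17 ± 0.09, Dbf4, the activator of the Cdc7 kinase, at -1.97 ± 0.10 and Anln (anillin), a scaffold of the cleavage furrow, at -1.91 ± 0.11. Bub3, a checkpoint protein, rose by 0.96 ± 0.10, Orc3, an origin recognition subunit, by 0.59 ± 0.11 and Rpa2, which binds single-stranded DNA, by 0.47 ± 0.11. By the value table, 20 replication genes were called higher and limma called 0 lower, with 0 lower also at an unadjusted p under 0.05, and 27 mitotic genes higher and 1 lower. These compare with 36.8% higher and 35.7% lower among all genes in the signal table and 29.1% and 24.3% in the value table. At p5 against PC, 16 replication genes were higher and 5 lower in the signal table (45.7% and 14.3% of the 35, against 35.8% and 30.7% of all genes) and 10 and 2 in the value table. The 10 are 28.6% of the list, near the 30.2% of all genes called higher there. At the same comparison, 21 mitotic genes were higher and 4 lower in the signal table (56.8% and 10.8% of the 37) and 26 and 2 in the value table (70.3% and 5.41%).

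Among the 16 members with over 1 probe above the filter, 29 further probes could be set beside those used. On the signal scale, 26 of the 29 had the same sign as the probe used at p25 against PC, and 27 at p25 against p5. On the value scale these counts were 25 and 22. The signal exceptions at p25 against PC were both further probes of Cdk1 (0.15 and 0.82), each detected on 3 arrays, and a probe of Lig1 (0.22).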

How the data were processed

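RNA of 10 samples was measured on Illumina bead arrays, 1 array per sample. The deposited signal table holds bead intensity per probe on a linear scale with a detection p-value, per the file headers, and the labels name BeadStudio 3.2, RMA and lumi in the submitters' processing notes without their order. The authors' value table holds normalised values that lie on a log2 scale, whose centring is not given in the sources used here; a kit for 2 rounds of amplification is named in the labels for sorted transplanted cells, without saying which arrays used it. Intensities were background-corrected in limma 3.58.1 (R 4.3.3; nec, offset 16, negative controls inferred from the detection p-values) and quantile-normalised. Probes with a detection p under 0.01 on at least 2 arrays passed (14539 of 25697), symbols came from the platform annotation updated through RefSeq (23978 probes with 1 symbol, 1719 with none), and the probe of highest mean stood for each of 9778 genes. The value table was read at those probes, and no columns of other samples (0) were present.

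Groups were compared in 10 contrasts with limma's moderated test on all 10 arrays (2 per group, 5 residual degrees of freedom), two-sided, with Benjamini-Hochberg adjustment over all genes of a contrast. The number of arrays limits the precision. For a gene undetected on both arrays of a group, the bound sets the brighter group's mean against the lowest detected signal of each array. The members and the gene lists were chosen with earlier results of these data known. Signal levels on each array were given for Cdk1, Ccna2, Mcm2, Mcm5, Pcna, Top2a, Birc5, E2f1, Foxm1 and, in each role, the 2 members with the widest and the 1 with the narrowest range of signal group means; members called in opposite directions against PC were named, and of other genes those with the 3 largest rises and falls. The fit was tested on simulated data. The replicate numbers did not pair the arrays: deviations of same-numbered arrays correlated at -0.0475 to 0.127 in the signal table and -0.0819 to 0.0962 in the value table, so they entered only an alternative fit. Alternatives changed the background correction, scaling, filter, probe choice, prior variance and arrays used. Plots used matplotlib 3.10.9 under Python 3.11.15.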

Additional observations from a re-analysis of the deposited data

Results flagged for a closer look

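By the signal table, 25 members were called higher than PC at p5 and lower than PC at p25, a pattern shown by 3.11% of all 9778 genes. A called difference between p25 and p5 follows from that choice and adds no support. The log2 differences, p25 minus p5, were Kif11 at -2.47, Tk1 at -2.26, Kif23 at -2.23, Cenpa at -2.05, Hmgb2 at -2.04, Birc5 at -1.98, Nusap1 at -1.78, Cdc20 at -1.72, Ccna2 at -1.71, Kif2c at -1.70, Top2a at -1.69, Mcm5 at -1.64, Ttk at -1.60, Lig1 at -1.55, Rfc4 at -1.55, Mcm6 at -1.52, Mcm3 at -1.43, Ccne2 at -1.42, Bub1b at -1.39, Prim1 at -1.36, Prc1 at -1.36, Cdc25c at -1.33, Cdc45 at -1.24, Pole at -1.18 and Fen1 at -0.74. The list joins helicase and fork genes (Mcm3, Mcm5, Mcm6, Cdc45, Lig1 and Rfc4) with spindle and chromosome genes (Kif11, Kif23, Cenpa and Top2a). Within the value table none of the 49 members was called in opposite directions at these passages with a called difference between them. Several of the p5 calls are small: 13 of the 25 (Birc5, Bub1b, Ccna2, Ccne2, Cdc25c, Cdc45, Cenpa, Mcm3, Mcm6, Pole, Prc1, Rfc4 and Ttk) were lost in at least 1 of 19 alternatives, that of Cdc25c in 11. Under median scaling the p5 difference of Cenpa went from 0.39 to 0.09 (adjusted p = 0.509) and that of Prc1 from 0.51 to 0.21 (adjusted p = 0.109).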

How the results depend on the processing

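Of the counts of members, 624 recomputed values stayed within 1.5 times the reported count and the others are given here. By the signal table, p25 against PC gave 1 higher member in place of 3 under median scaling, and p15 against OPC 1 lower in place of 0 without the filter. With the authors' values without the filter, OPC against PC gave 13 higher in place of 20, p5 against PC 2 lower in place of 4, p15 against OPC 0 lower in place of 1, p15 against p5 3 higher in place of 13 and p25 against p5 1 higher in place of 10. With a variance trend, p25 against PC gave 2 lower, p15 against OPC 0 lower, p25 against OPC 6 lower and p15 against p5 28 higher. Without both p5 arrays, OPC against PC gave 5 lower, p25 against PC 2, p15 against OPC 4 and p25 against OPC 6. Without both OPC arrays, an alternative chosen after seeing the data, p15 against p5 gave 6 higher and p25 against p5 1. With the replicate number as a block, the value table gave 2 lower for p25 against PC and 4 higher for p25 against p5, and no other count of members moved by over 1.5 times; the samples share only a number. Leaving out 1 array at a time in the signal table gave ranges of 1 to 3 higher and 2 to 4 lower (p5) against PC, 0 to 1 lower for p15 against OPC, 9 to 15 higher for p15 against p5, 0 to 1 for p25 against p15 and 0 to 1 for p25 against p5. In the value table the ranges were 11 to 28 higher and 1 to 5 lower for OPC, 1 to 8 lower for p5 and 0 to 2 lower for p25 against PC, 8 to 18 higher for p5, 0 to 4 lower for p15 and 2 to 6 lower for p25 against OPC, 1 to 24 higher for p15 against p5, and 0 to 18 higher and 0 to 3 lower for p25 against p5; where a group kept 1 array, it was assumed to vary like the others. For the separate counts of S phase and of mitotic members, 1260 recomputed values stayed within 1.5 times and 116 did not. Of the recomputed changes of single members and other named genes, 5524 kept their call and 387 lost it, Ezh2 at p25 against PC reversed to -0.10 under median scaling in the signal table and Mcm4 to -0.027 with probes averaged in the value table; apart from the named construction of each setting, the cause was not tested. Levels near the detection limit (Ttk, Cdc25b, Gmnn, Ube2c) limit what could be measured at p25. The mismatch of the tables' headings limits every comparison, including those where both tables made the same call.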
